A study of Mus musculus with 6 samples.

Results

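The genes described here are 10 acute-phase and inflammatory genes, Saa1, Saa2, Saa3, Lcn2, Hp, Orm1, Nos2, Ptx3, Steap4 and Nfkbiz, out of 56196 genes counted in mouse osteosarcomas. They were chosen as genes high in SKP2-intact tumours whose libraries held few leukocyte transcripts, so their difference between the groups had a part in the choice and is described without a test. RNA selected on poly(A) tails was sequenced from 3 triple knockout tumours (TKO; Osx1-Cre;Rb1lox/lox;p53lox/lox;SKP2-/-) and 3 double knockout tumours (DKO; Osx1-Cre;Rb1lox/lox;p53lox/lox). All 6 tumours therefore lacked Rb1 and Trp53 in cells in which Osx1 (also called Sp7, active in osteoblast precursors) drives Cre, and SKP2, the substrate-recognition subunit of a ubiquitin ligase, was lost in TKO alone. Replicate 1 of each group was male and replicates 2 and 3 were female. Ages are not given in the sources used here, nor is it stated that each tumour came from its own mouse, so the p-values below measure the spread between these samples.

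Acute-phase proteins are plasma and tissue proteins whose genes are switched on during infection and injury. Interleukin 6 and related cytokines act through STAT3, interleukin 1 and tumour necrosis factor act through NF-kB, and C/EBP factors act with both. The liver is the main source of most of them, but Saa3, Lcn2 and Ptx3 are also made by stromal, epithelial and myeloid cells at sites of inflammation, and in mice IκBζ, the product of Nfkbiz, is needed for full induction of several NF-kB targets, Lcn2 and Il6 among them.

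Gene counts came to 20002918 to 22488819 per TKO library and 17063231 to 21581482 per DKO library. Skp2 had 0 counts in each TKO library and 20, 64 and 46 counts in the 3 DKO tumours. All 6 samples are labelled as freshly collected tumour tissue, but the DKO libraries had little of what a tumour with vessels and immune cells holds. Whether their material was tissue of the same kind as that of TKO was not tested and cannot be told apart from the genotype, so "DKO tumour" below means a library with that label. Summed over 12 leukocyte markers, the level was 463 to 1611 counts-per-million (CPM) in TKO and 7.74 to 18.4 CPM in DKO, and 10 of the 12 lay under 1 CPM in every DKO library. For 12 neutrophil markers the sum was 22.8 to 233 CPM over TKO and 1.73 to 6.40 CPM in DKO, with 6 of the 12 at 0 counts in all DKO libraries. Mmp8 alone gave most of the sum in TKO3, and without it, a choice made after seeing the data, the other 11 summed to 16.8 CPM in TKO1, 63.4 CPM in TKO2 and 21.2 CPM in TKO3 and to 1.58 to 4.42 CPM in DKO. For 12 macrophage markers it was 912 to 2447 CPM over TKO and 22.6 to 129 CPM in DKO. C1qa, C1qb, C1qc and Ms4a7 were at 0 in DKO, and 7 of the 12 stayed under 1 CPM in each DKO library. Cd68 alone made up most of the sum in DKO2 (121 CPM) and in DKO3 (90.4 CPM). For 12 endothelial markers the sum was 203 to 991 CPM over TKO and 34.5 to 47.2 CPM in DKO, where 8 of the 12 stayed under 1 CPM throughout. Its largest part was Ramp2 in DKO1 (22.8 CPM), but Flt1 in DKO2 (30.1 CPM) and in DKO3 (20.3 CPM). Hepatocyte markers were low in both groups, with a sum over 12 genes of 0.336 to 5.11 CPM over TKO and 0.473 to 19.7 CPM in DKO. Bone markers were uneven. Sp7 and Ibsp, which mark osteoblasts, had 0 counts in TKO1 and in DKO2, and Ibsp also had 0 in DKO3. TKO1 stood apart from TKO2 and TKO3. Its 12 osteoblast markers summed to 4347 CPM, against 54957 CPM in TKO2 and 81441 CPM in TKO3, with 15937 to 24490 CPM in DKO. Its 10 fibroblast markers summed to 1231 CPM, against 22090 CPM in TKO2 and 4441 CPM in TKO3, with 7462 to 17500 CPM in DKO. In TKO2 most of this sum was Postn (11457 CPM) and Col3a1 (8692 CPM). The keratin gene Krt18, a marker of simple epithelia, had 541 CPM in TKO1, 1.68 CPM in TKO2 and 0.305 CPM in TKO3, and 0 to 2.75 CPM in DKO. Of the other epithelial markers listed, Krt8 (25.3 CPM) and Lor (1.54 CPM) were also highest in TKO1. The rest did not single out TKO1. Among the TKO tumours Epcam was lowest there (0.706 CPM), and Krt5, Krt14 and Krt19 had 0 counts there. Cdh1 was highest in TKO3 (12.9 CPM). Cldn4 was highest in TKO2 and Cldn7 in DKO1, each under 1 CPM. The difference between TKO and DKO is therefore also a difference in cell content, and its part in the results below was not tested. A lower level in bulk RNA cannot tell fewer cells of a type from less RNA per cell.

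Not all 10 genes were high in DKO. Saa3, Lcn2, Ptx3, Steap4, Nos2 and Nfkbiz averaged 3.35 to 154 CPM in TKO and 195 to 2896 CPM in DKO. Hp varied widely, Orm1 was low and uneven (0 CPM in TKO1 to 5.81 CPM in TKO2), and Saa1 and Saa2 were near the limit of detection. Of the 10, 8 passed the filter on low counts and 2, Saa1 and Saa2, did not. In 5 of those 8 genes every TKO tumour lay below every DKO tumour, and this was also so for Saa1 and Saa2 at very few counts; for Saa2 it rested on 1 count in TKO2 and 1 count in DKO2, set apart by library size alone. Over all 15361 genes tested, 15.6% were separated in this direction. Values per tumour are given in the order of replicates 1, 2 and 3. The groups overlapped for Hp, Orm1 and Ptx3. The median log2 fold change (TKO over DKO) of the 8 genes was -2.74, beside 0.09 over all genes tested.

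**Figure D1:**
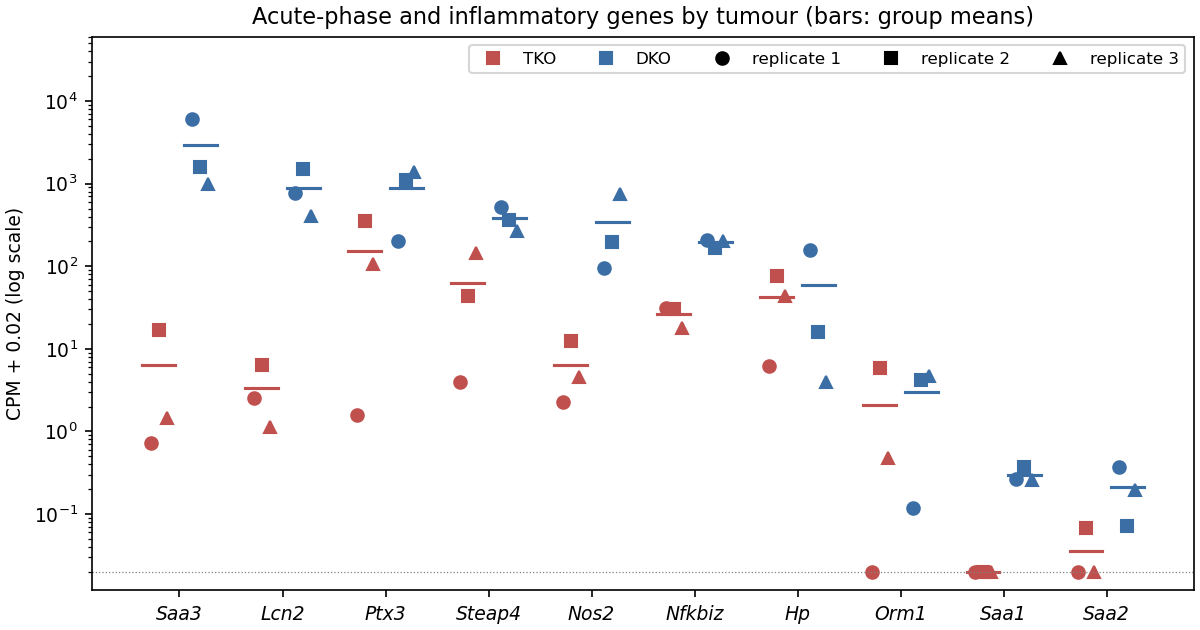
Level of each gene in each tumour, as CPM plus 0.02 on a log axis, with TKO in red and DKO in blue, symbols for replicates and bars for the group means; the dotted line is 0 CPM. Saa3 and Lcn2 lie far apart between the groups, Hp and Orm1 overlap, and Saa1 and Saa2 stay under 1 CPM in all tumours.

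Saa3 (chromosome 7, 46711998 to 46715700, GRCm38) codes for serum amyloid A3, a lipid-binding acute-phase protein that in mice is made mostly outside the liver. It had 0.706, 16.8 and 1.42 CPM in the 3 TKO tumours, against 6103, 1597 and 988 CPM in the 3 DKO tumours. The groups did not overlap, and the highest TKO value, in TKO2, was far under the lowest DKO value, in DKO3. The means were 6.32 ± 9.10 CPM over TKO and 2896 ± 2794 CPM in DKO (SD, n = 3 each), 458-fold lower in TKO (log2 fold change -8.84). Leaving out each library in turn gave log2 fold changes of -11.4 (without TKO2) to -7.69 (without DKO1). Per kilobase of its main transcript, Saa3 ranked 10760 in TKO1, 2445 in TKO2 and 10315 in TKO3 among protein-coding genes, and 1 in DKO1, 4 in DKO2 and 11 in DKO3. It took 0.57% of all gene counts in DKO1.

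Saa1 and Saa2 lie beside Saa3 (chromosome 7, 46740497 to 46742980 and 46751790 to 46754313) and code for the circulating serum amyloid A proteins that the liver releases in the acute phase. Saa1 had 0 counts in all 3 TKO libraries and 5, 7 and 4 counts in the 3 DKO tumours, at least 6.07-fold lower in TKO against a floor of 3 counts over the group. Saa2 had 0, 1 and 0 counts in the 3 TKO tumours and 7, 1 and 3 counts in the 3 DKO tumours, a ratio of DKO to TKO of 12.5 (exact 95% counting interval 1.82 to 539). In the DKO tumours the cluster was thus read out almost wholly as Saa3, with 171075 counts for Saa3 beside 16 for Saa1 and 11 for Saa2 over the group. The 3 genes resemble each other, and reads that match several places were not counted. The main transcripts of Saa1 and Saa2 were 87.7% identical, and those of Saa1 and Saa3 65.2%. No stretch of 100 bases of the 3 main transcripts was found unchanged in a transcript of another gene. Shorter shared stretches were not searched for, so the loss of reads that match several places was not measured.

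None of the tested genes around the cluster differed as far as Saa3 did. Within 100 kb of Saa1 to Saa4 the annotation has 6 other protein-coding genes, of which 5 could be tested, and none passed edgeR's quasi-likelihood test at an adjusted p of 0.05 (1 at an unadjusted p under 0.05, and 0 by DESeq2 and by limma-voom). Saal1, the nearest neighbour, with its start at -5.02 kb from that of Saa3, had 26.3, 13.7 and 20.0 CPM in the 3 TKO tumours and 33.8, 26.2 and 26.6 CPM in the 3 DKO tumours (log2 fold change -0.53, SE 0.34, adjusted p = 0.379). Saa4, the constitutive member of the family, had 2, 0 and 0 counts in the 3 TKO tumours and 3, 13 and 0 counts in the 3 DKO tumours. Log2 fold changes were 0.20 for Sergef (adjusted p = 0.857), -0.74 for Hps5 (adjusted p = 0.279) and -0.80 for Gtf2h1 (adjusted p = 0.197), and Tph1 had at most 11 counts in any library. Ldha, the lactate dehydrogenase gene at the far edge, had 658 ± 64.6 CPM over TKO and 1189 ± 503 CPM in DKO (adjusted p = 0.225). For Ldha and Gtf2h1 every TKO value lay below every DKO value, and the groups overlapped for Saal1, Sergef and Hps5.

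**Figure D2:**
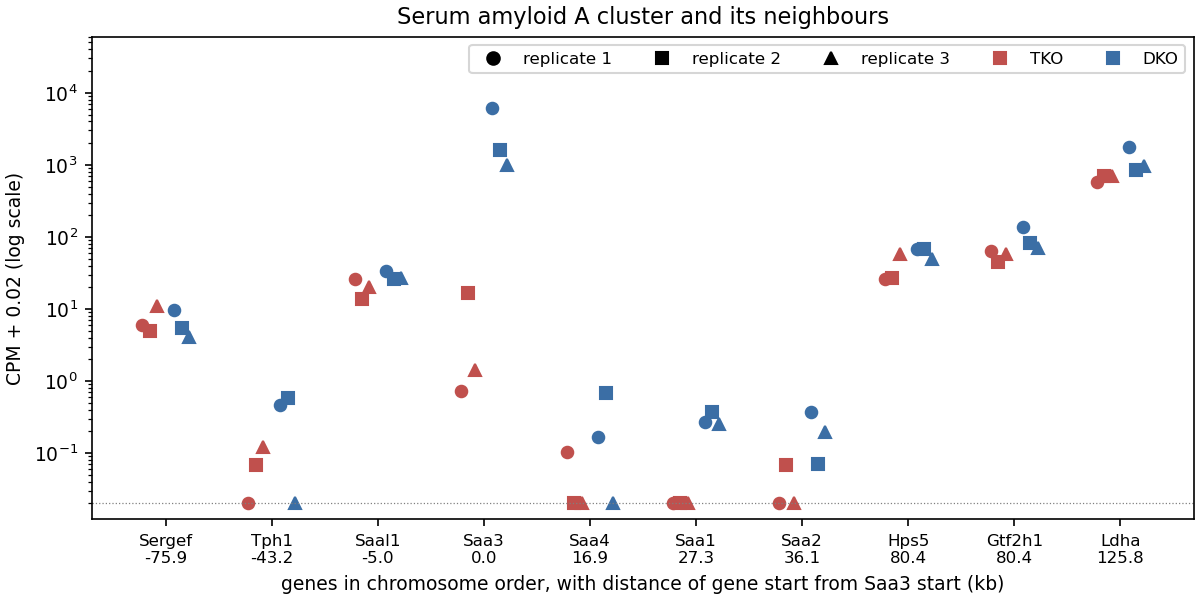
Level of the Saa genes and of the other protein-coding genes within 100 kb, as CPM plus 0.02 on a log axis, in chromosome order with the distance of each gene's start from that of Saa3 in kb. TKO is red and DKO blue, with symbols for replicates; Saa3 is low in TKO and high in DKO, and none of the 5 neighbours tested passed an adjusted p of 0.05.

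The promoters of 4 of these genes are given here to set the most abundant gene of the cluster beside its near-silent neighbour Saa1, and to show Lcn2 and Steap4, for which all TKO values were below all DKO values. RefSeq promoters (GRCm38.p6) were matched for Saa1, Saa2, Saa3, Lcn2, Ptx3 and Steap4, 6 of the 10 genes, and the 250 bases before the start are printed 5′ to 3′ on the strand of the gene. Capitals mark matches, on either strand, to a C/EBP motif (TTNNGNAA), a STAT motif (TTCNNNGAA) or the NF-kB consensus. The windows are chr7:46715677-46715926 (minus strand) for Saa3, chr7:46742981-46743230 (minus) for Saa1, chr2:32387740-32387989 (minus) for Lcn2 and chr5:7960222-7960471 (plus) for Steap4. The starts are those of RefSeq and can differ from the gene coordinates given in the text. By those coordinates the Lcn2 window lies wholly inside the gene, and the Saa3 and Steap4 windows overlap the first bases of theirs.
Saa3: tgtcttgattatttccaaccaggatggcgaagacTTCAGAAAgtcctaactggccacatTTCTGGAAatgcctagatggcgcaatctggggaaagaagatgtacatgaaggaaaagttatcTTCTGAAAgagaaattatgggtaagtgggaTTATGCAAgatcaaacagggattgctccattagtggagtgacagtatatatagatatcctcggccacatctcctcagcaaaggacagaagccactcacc
Saa1: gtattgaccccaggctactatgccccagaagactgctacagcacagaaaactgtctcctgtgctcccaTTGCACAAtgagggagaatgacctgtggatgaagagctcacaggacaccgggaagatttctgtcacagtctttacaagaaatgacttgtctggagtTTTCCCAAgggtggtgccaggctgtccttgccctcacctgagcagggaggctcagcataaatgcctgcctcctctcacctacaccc
Lcn2: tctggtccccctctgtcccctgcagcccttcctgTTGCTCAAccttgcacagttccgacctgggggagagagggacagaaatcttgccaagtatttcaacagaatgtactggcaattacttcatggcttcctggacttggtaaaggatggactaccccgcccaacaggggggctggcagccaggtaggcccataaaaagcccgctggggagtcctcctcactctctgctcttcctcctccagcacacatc
Steap4: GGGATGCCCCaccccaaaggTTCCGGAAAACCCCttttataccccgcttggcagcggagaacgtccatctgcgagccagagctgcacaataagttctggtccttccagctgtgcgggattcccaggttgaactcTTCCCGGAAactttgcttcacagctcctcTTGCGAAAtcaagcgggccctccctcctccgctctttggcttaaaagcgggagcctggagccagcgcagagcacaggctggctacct
The Saa3 window held 4 C/EBP matches, that of Saa1 2 and that of Lcn2 1. The Steap4 window held 2 NF-kB matches, 2 C/EBP matches and 1 STAT match, with a C/EBP match overlapping an NF-kB match. The windows of Saa1, Saa2, Saa3, Lcn2 and Ptx3 held no NF-kB or STAT match, and those of Saa2 and Ptx3 held 1 C/EBP match each. Of all 32851 RefSeq promoters, 36.8% held the C/EBP motif in such a window, 7.02% the STAT motif and 3.90% the NF-kB consensus. The C/EBP motif is thus common. The windows of Saa1 and Saa3 were 55.6% identical when aligned, and those of Saa1 and Saa2 95.2%.

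Lcn2 (chromosome 2, 32384633 to 32388252) codes for lipocalin 2, which binds bacterial siderophores, is stored in neutrophil granules and is also secreted by epithelial and stromal cells under NF-kB and IκBζ control. It had 2.53, 6.39 and 1.12 CPM in the 3 TKO tumours, against 769, 1510 and 401 CPM in the 3 DKO tumours. All TKO values were far below all DKO values, and DKO2 was the highest. The means were 3.35 ± 2.73 CPM over TKO and 894 ± 565 CPM in DKO (SD, n = 3 each), 266-fold lower in TKO (log2 fold change -8.06, from -8.91 to -7.47 with each library left out in turn). Per kilobase Lcn2 ranked 9518, 7736 and 11493 among protein-coding genes in the 3 TKO tumours, against 48, 8 and 118 in the 3 DKO tumours. Lcn2 went against the neutrophil markers. It was chosen as a gene high in SKP2-intact tumours whose libraries held few leukocyte transcripts. This contrast is therefore largely built into the choice, and the ratios that follow describe it without testing it. There were 0.111, 0.0974 and 0.00479 Lcn2 counts for each count of the neutrophil list in the 3 TKO tumours, and 120, 873 and 144 in the 3 DKO tumours. The DKO ratios divide by few list counts (129, 34 and 47). Most of the list's counts in TKO3 were Mmp8 (4178 of 4596), and without that gene the ratios were 0.151, 0.101 and 0.0526 in the 3 TKO tumours and 174, 957 and 162 in the 3 DKO tumours. In DKO2, 29669 Lcn2 counts stood beside 34 counts for the 12 neutrophil markers together and 3 counts of Ptprc, which codes for CD45 on all leukocytes.

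**Figure D3:**
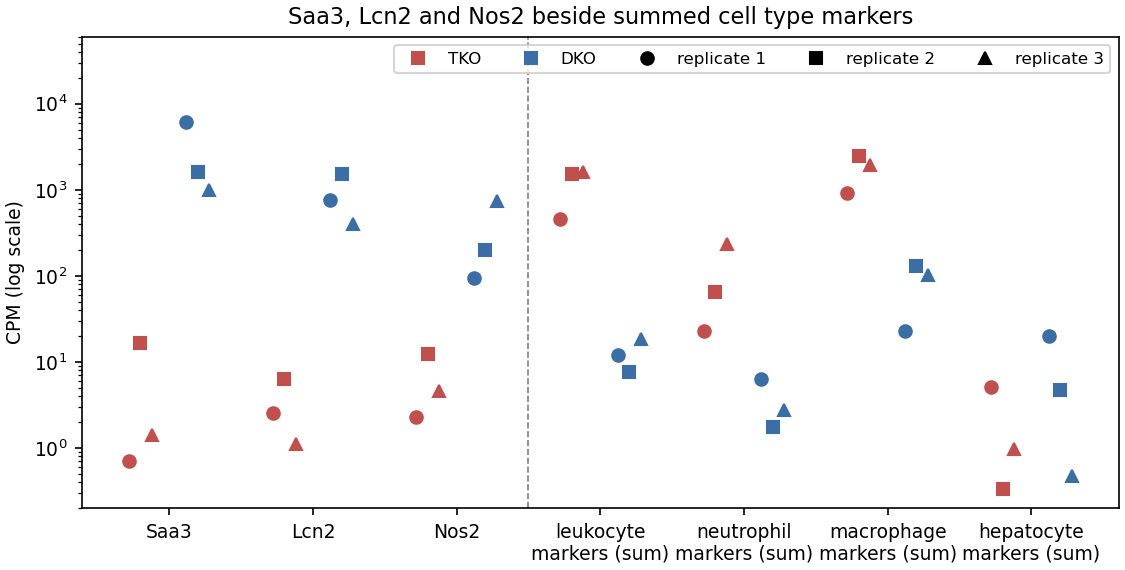
CPM on a log axis of Saa3, Lcn2 and Nos2 (left of the dashed line) and summed CPM of the leukocyte, neutrophil, macrophage and hepatocyte marker lists (right), with TKO in red, DKO in blue and symbols for replicates. The 3 genes are low in TKO, where leukocyte markers sum to at least 463 CPM, and high in DKO, where these sum to at most 18.4 CPM. This contrast had a part in the choice of the genes.

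Ptx3 (chromosome 3, 66219910 to 66225805) codes for the long pentraxin PTX3, a soluble pattern recognition protein made at inflamed sites by macrophages, vessels and stromal cells. It had 1.58, 353 and 107 CPM in the 3 TKO tumours, against 200.3, 1094 and 1371 CPM in the 3 DKO tumours. The groups overlapped, since TKO2 lay above DKO1, while TKO1 was far below all others. The means were 154 ± 181 CPM over TKO and 889 ± 612 CPM in DKO (SD, n = 3 each), and the log2 fold change was -2.53. It was -1.95 without TKO1 and -4.03 without TKO2.

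Hp (chromosome 8, 109575128 to 109579172), coding for haptoglobin, which binds free haemoglobin, did not share the pattern. It had 6.23, 76.4 and 43.1 CPM in the 3 TKO tumours and 159, 16.04 and 3.96 CPM in the 3 DKO tumours. The highest and the lowest of all 6 values were both in DKO, and the means were 41.9 ± 35.1 CPM over TKO and 59.6 ± 86.2 CPM in DKO (SD, n = 3 each). Its log2 fold change of -0.51 became 2.05 without DKO1. The hepatocyte gene Alb was also highest in DKO1, with 389 counts, but Ttr, Apoc3, Fga and Fgb had 0 counts in that library. Orm1 (chromosome 4, 63344560 to 63348163), coding for the plasma protein orosomucoid, had 0, 121 and 9 counts in the 3 TKO tumours and 2, 83 and 80 counts in the 3 DKO tumours. Its mean was 2.09 ± 3.23 CPM over TKO and 3.02 ± 2.54 CPM in DKO (SD, n = 3 each), with overlapping groups. Of Orm1, 6.95% of the 100-base windows in its main transcript also occur in Orm2, to which it is 91.0% identical. Reads that match several places are not counted, and how many Orm1 lost in this way was not measured.

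Nos2 (chromosome 11, 78920787 to 78960254) codes for the inducible nitric oxide synthase, best known from activated macrophages. It had 2.28, 12.3 and 4.57 CPM in the 3 TKO tumours, against 94.3, 199 and 751 CPM in the 3 DKO tumours. The groups did not overlap, and DKO3 held most of the signal. The log2 fold change was -5.76, or -4.53 without DKO3 and -6.66 without TKO2. DKO1 and DKO3 had 94.3 and 751 CPM of Nos2 beside 0 counts of Ptprc each, a contrast that had a part in the choice of the genes. Steap4 (chromosome 5, 7960457 to 7982213) codes for a metalloreductase that reduces iron and copper and is induced by inflammatory cytokines. It had 3.95, 43.1 and 143 CPM in the 3 TKO tumours, against 525, 364 and 269 CPM in the 3 DKO tumours. All TKO values were below all DKO values, with TKO3 nearest to them, and the log2 fold change was -2.61, or -4.03 without TKO3 and -2.06 without TKO1.

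Nfkbiz (chromosome 16, 55811375 to 55838899), the nuclear regulator of the set, was the steadiest. It had 31.3, 30.3 and 17.9 CPM in the 3 TKO tumours, against 211, 169 and 205 CPM in the 3 DKO tumours. The means were 26.5 ± 7.46 CPM over TKO and 195 ± 22.8 CPM in DKO (SD, n = 3 each), 7.34-fold lower in TKO, with log2 fold changes of -3.02 to -2.65 when each library was left out.

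The order of levels can be compared between genes per kilobase of main transcript. In TKO the order of means was led by Ptx3 (81.1 ± 95.2 CPM per kilobase), Hp (31.2 ± 26.1) and Steap4 (20.0 ± 22.7), with Saa3 at 11.4 ± 16.4 and Lcn2 at 3.66 ± 2.98. It did not hold in every TKO tumour. In TKO1 Nfkbiz (7.61) and Hp (4.63) were highest, with Steap4 at 1.25 and Ptx3 at 0.831. In TKO3 Steap4 (45.2) was above Hp (32.0). In DKO it ran from Saa3 (5218 ± 5034 CPM per kilobase, SD, n = 3) through Lcn2 (977 ± 617), Ptx3 (468 ± 322), Steap4 (122 ± 41.0), Nos2 (102 ± 103), Nfkbiz (47.3 ± 5.54), Hp (44.3 ± 64.1) and Orm1 (3.90 ± 3.28) to Saa1 (0.46 ± 0.108) and Saa2 (0.294 ± 0.228). Saa3 was above Lcn2 in each of the 3 DKO tumours, while every later pair of neighbours in this order overlapped between tumours.

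Neither group carried the genes in 1 fixed proportion. Among the 8 genes past the count filter, TKO1 was the lowest TKO tumour for 6 and TKO2 the highest for 6. The summed fibroblast markers were likewise lowest in TKO1 and highest in TKO2. So were the summed macrophage markers (912, 2447 and 1951 CPM), endothelial markers (203, 991 and 707 CPM) and adipocyte markers. Leukocyte, osteoblast and neutrophil sums were lowest in TKO1 but highest in TKO3, though without Mmp8 the neutrophil sum was highest in TKO2. Epithelial and hepatocyte sums were highest in TKO1. The part of cell content in this order was not tested. Most of the fibroblast sum in TKO2 was Postn and Col3a1. By gene, Col3a1, Postn, Thy1, Fbln1 and Dpt were highest in TKO2, and Pdgfra, Pdgfrb, Dcn, Lum and Fap in TKO3. For the same 8, DKO1 had the highest value of 4 (Saa3, Steap4, Nfkbiz and Hp), DKO2 of 1 (Lcn2) and DKO3 of 3 (Nos2, Ptx3 and Orm1). DKO1 was at the same time lowest for Nos2, Ptx3 and Orm1. The highest DKO tumour exceeded the lowest 6.17-fold for Saa3, 3.76-fold for Lcn2, 6.85-fold for Ptx3, 7.96-fold for Nos2, 40.1-fold for Hp and 47.7-fold for Orm1, but 1.95-fold for Steap4 and 1.25-fold for Nfkbiz. On the log2 scale the DKO range of Saa3 was wider than that of 93.0% of the genes tested, that of Nos2 than 95.0% and that of Hp than 99.5%, whereas that of Nfkbiz was wider than 16.4%. DKO1 was the male tumour of its group, so its sex cannot be told apart from the single tumour.

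**Figure D4:**
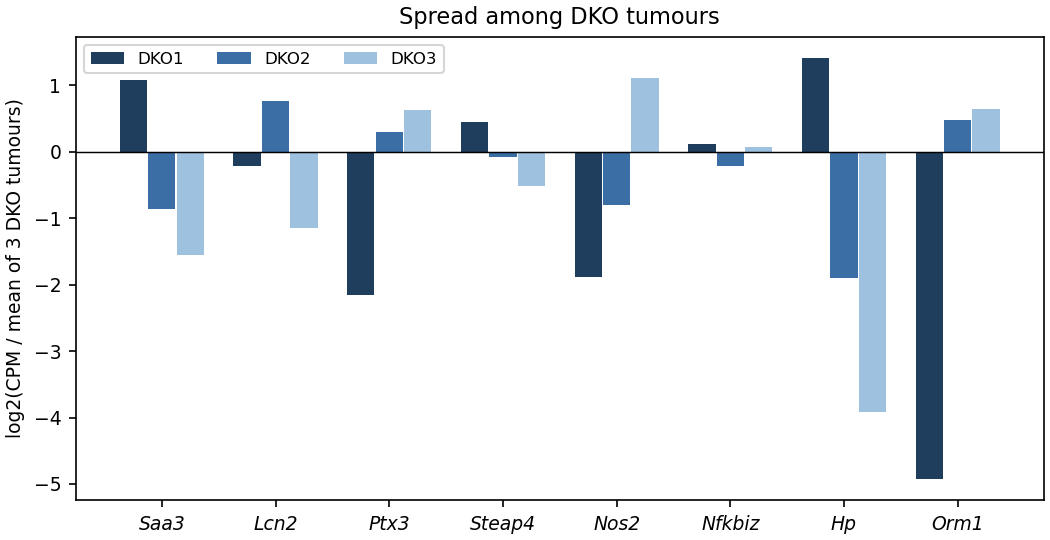
The log2 ratio of each DKO tumour's CPM to the mean of the 3 DKO tumours, for the 8 genes past the count filter, with DKO1, DKO2 and DKO3 from dark to light. Saa3 and Hp are highest in DKO1, Nos2 and Ptx3 in DKO3, and Nfkbiz differs little between the tumours.

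Genes outside the set that are known to act with it were taken from 8 lists with 159 genes in all, of which 138 could be tested. Over all genes tested 7.36% passed in either direction. Of the listed genes 18 fell and 4 rose in TKO by edgeR's quasi-likelihood test at an adjusted p of 0.05, beside 2.47% of all tested genes that fell and 4.89% that rose. The share of listed genes that fell was 13.0% and the median log2 fold change was -0.82. By list the median ran from -1.76 for other acute-phase proteins to 0.77 for inducing cytokines, with -0.026 for arginine and nitric oxide. Earlier results of these data were known when the lists were drawn up, so the share is no independent support. All 22 genes kept their direction and an unadjusted p under 0.05 with each library left out in turn, but 13 of the 22 passed without TKO2, 10 without TKO3 and 0 without DKO1, DKO2 or DKO3. Of the 17 that remained when genes near absent in a group were left out, 6 passed.

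Among the cytokines that induce acute-phase genes, 2 of 10 tested fell and 0 rose (4 and 2 at an unadjusted p under 0.05; 4 and 2 by DESeq2, 3 and 2 by limma-voom). Csf3, the granulocyte colony-stimulating factor, had 0.0831, 0 and 0.254 CPM in the 3 TKO tumours, against 26.3, 15.7 and 17.6 CPM in the 3 DKO tumours (log2 fold change -7.41, SE 1.02, adjusted p = 0.0158). Csf3 was thus present in the tumours with almost no neutrophil transcripts and nearly absent from those that had them. Il33, an alarmin of stromal cells, fell to 14.0 ± 12.4 CPM in TKO, against 332 ± 201 CPM in DKO (log2 fold change -4.56, SE 1.02, adjusted p = 0.0456). Il6 had 0.208, 5.62 and 1.52 CPM in the 3 TKO tumours and 17.8, 52.4 and 37.0 CPM in the 3 DKO tumours, and did not pass (adjusted p = 0.0828). Lif, which acts through the same co-receptor, had 14.2 ± 15.2 CPM over TKO and 93.7 ± 39.3 CPM in DKO (adjusted p = 0.139). The 2 classical NF-kB inducers were scarce in DKO. Il1b had 1.87, 12.3 and 2.29 CPM in the 3 TKO tumours, against 0, 0.255 and 0 CPM in the 3 DKO tumours (adjusted p = 0.0681), and Tnf had 1.42 ± 0.959 CPM over TKO and 0.775 ± 0.628 CPM in DKO (adjusted p = 0.587). Osm, which like Il1b comes mostly from leukocytes, had 1.90 ± 1.33 CPM over TKO and 0.0662 ± 0.115 CPM in DKO (adjusted p = 0.0784).

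Of 28 receptors and adaptors 2 fell and 1 rose. Osmr, the receptor subunit for oncostatin M, fell to 12.5, 81.1 and 32.1 CPM in the 3 TKO tumours, against 324, 591 and 426 CPM in the 3 DKO tumours (log2 fold change -3.42, SE 0.71, adjusted p = 0.0365). Il1rap, the shared subunit of the receptors for interleukins 1 and 33, fell 7.26-fold (log2 fold change -2.86, SE 0.45, adjusted p = 0.021), and Il1r1 had 51.0 ± 27.3 CPM over TKO and 198 ± 21.6 CPM in DKO (adjusted p = 0.0531). The gene that rose was Csf3r, the receptor for Csf3 on neutrophils, at least 242-fold above 0 counts in DKO (adjusted p = 0.0297).

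The NF-kB list had a median log2 fold change of -0.83, beside -1.45 for the NF-kB targets further down; the difference between the lists was not tested. Of 17 subunits, kinases and inhibitors 2 fell and 0 rose (7 and 0 at an unadjusted p under 0.05; 4 and 0 by DESeq2, 3 and 0 by limma-voom). Zc3h12a, coding for the nuclease regnase-1 that degrades inflammatory transcripts, fell to 17.9 ± 3.11 CPM in TKO, against 92.0 ± 14.4 CPM in DKO (log2 fold change -2.36, SE 0.28, adjusted p = 0.0125), and Relb fell 2.77-fold (adjusted p = 0.0412). Rela had 121 ± 42.4 CPM over TKO and 119 ± 19.5 CPM in DKO (adjusted p = 0.978), Nfkb1 198 ± 66.0 CPM in TKO against 177 ± 42.1 CPM in DKO (adjusted p = 0.815) and the feedback inhibitor Nfkbia 105 ± 36.2 CPM in TKO against 157 ± 45.3 CPM in DKO (adjusted p = 0.379). Bcl3, a nuclear relative of Nfkbiz, had 23.5 ± 11.8 CPM over TKO and 65.3 ± 6.11 CPM in DKO (adjusted p = 0.0681). Of 14 C/EBP and STAT3 genes 0 fell and 1 rose (4 and 2 at an unadjusted p under 0.05; 1 and 1 by DESeq2, 0 and 0 by limma-voom). Cebpa, a factor of myeloid cells, liver and fat, rose 5.15-fold (adjusted p = 0.0361). Cebpd, the C/EBP factor most typical of the acute phase, had 53.0 ± 17.7 CPM over TKO and 166 ± 70.8 CPM in DKO (adjusted p = 0.0609), and Cebpb 83.7 ± 27.9 CPM in TKO against 171 ± 58.0 CPM in DKO (adjusted p = 0.142). Nfkbib, another inhibitor of NF-kB, had 17.5 ± 0.946 CPM over TKO and 36 ± 2.5 CPM in DKO (adjusted p = 0.0593). Jak1, a kinase of the interleukin 6 receptor, had 190 ± 60.4 CPM over TKO and 381 ± 77.8 CPM in DKO (adjusted p = 0.128), and Pias3, an inhibitor of STAT3, had 80.7 ± 34.9 CPM over TKO and 39.5 ± 5.37 CPM in DKO (adjusted p = 0.131). Stat3 and its feedback inhibitor Socs3 did not pass (adjusted p = 0.298 and 0.195).

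Among 18 tested acute-phase genes outside the set 1 fell and 0 rose (6 and 1 at an unadjusted p under 0.05; 6 and 1 by DESeq2, 2 and 0 by limma-voom). The gene that fell was Serpina3m, a protease inhibitor of a cluster of similar genes, which had 0.0831, 0.817 and 0.102 CPM in the 3 TKO tumours, against 17.0, 59.2 and 192 CPM in the 3 DKO tumours (adjusted p = 0.0249). C3, the central complement protein, had 3.78, 209 and 41.3 CPM in the 3 TKO tumours and 1599, 2081 and 2044 CPM in the 3 DKO tumours. The groups did not overlap, but with the spread among the TKO tumours C3 did not pass (adjusted p = 0.0871). Serpina3n stood alike, at 28.6 ± 38.3 CPM over TKO and 1168 ± 252 CPM in DKO (adjusted p = 0.0503). The metallothionein Mt1 had 192 ± 157 CPM over TKO and 1.27e+03 ± 234 CPM in DKO (adjusted p = 0.073), and Lrg1, a secreted glycoprotein, had 14.9 ± 17.9 CPM over TKO and 0.415 ± 0.526 CPM in DKO (adjusted p = 0.0755). The 14 listed acute-phase genes that could not be tested, the liver genes Crp, Fga, Fgb, Fgg and Serpina1a among them, each had at most 16 counts in any library. Other genes of the list that the liver also makes were well detected. Cp, the gene of the copper carrier ceruloplasmin, named after its values were seen, had 7068, 464 and 7920 counts in the 3 TKO tumours and 27232, 14894 and 11803 counts in the 3 DKO tumours (adjusted p = 0.237).

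Nitric oxide synthase needs arginine and tetrahydrobiopterin. The arginine carrier Slc7a2 fell to 30.5, 29.9 and 99.4 CPM in the 3 TKO tumours, against 1687, 1346 and 1082 CPM in the 3 DKO tumours (log2 fold change -4.69, SE 0.63, adjusted p = 0.0156). Gch1, the first enzyme of tetrahydrobiopterin synthesis, fell to 12.8 ± 3.58 CPM in TKO, against 82.0 ± 22.8 CPM in DKO (adjusted p = 0.0144), and Slc7a1 fell 2.81-fold (adjusted p = 0.0452). Nos3, the endothelial enzyme, was at least 70.5-fold higher in TKO, with 0 counts in all DKO libraries (adjusted p = 0.0293). In all, 3 of 14 genes of this list fell and 1 rose. Arg1, which competes for arginine, had 167, 22.2 and 1.22 CPM in the 3 TKO tumours and 0, 0 and 0.296 CPM in the 3 DKO tumours (adjusted p = 0.0531).

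Of 15 partners in iron handling 4 fell and 1 rose. Steap2, a relative of Steap4, fell 5.95-fold (adjusted p = 0.0111), and Steap1, named after its values were seen, fell to 11.1, 7.59 and 1.47 CPM in the 3 TKO tumours, against 66.3, 55.4 and 56.4 CPM in the 3 DKO tumours (adjusted p = 0.0435). The iron carrier Slc11a2 fell to 59.4 ± 7.92 CPM in TKO, against 363 ± 2.69 CPM in DKO (log2 fold change -2.61, SE 0.26, adjusted p = 0.0111), and the haem oxygenase Hmox1 fell 4.42-fold (adjusted p = 0.0365). Cd163, the macrophage receptor for haptoglobin bound to haemoglobin, rose to 14.4 ± 6.30 CPM in TKO, against 0.807 ± 0.104 CPM in DKO (adjusted p = 0.0144). Slc22a17, a receptor for lipocalin 2, had 22.6 ± 15.9 CPM over TKO and 14.7 ± 7.95 CPM in DKO (adjusted p = 0.673).

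Of 24 other NF-kB targets 4 fell and 0 rose (10 and 1 at an unadjusted p under 0.05; 9 and 0 by DESeq2, 6 and 0 by limma-voom). The matrix protease Mmp3 fell to 0.581, 26.6 and 4.83 CPM in the 3 TKO tumours, against 4409.5, 1073 and 2039 CPM in the 3 DKO tumours (log2 fold change -7.88, SE 1.57, adjusted p = 0.0343). The neutrophil attractant Cxcl1 fell 42.0-fold (adjusted p = 0.0252), the monocyte attractant Ccl2 15.8-fold (adjusted p = 0.0362) and the cholesterol hydroxylase Ch25h 18.1-fold (adjusted p = 0.038). Cxcl5 had 7.40 ± 9.14 CPM over TKO and 101 ± 63.0 CPM in DKO (adjusted p = 0.116).

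**Figure D5:**
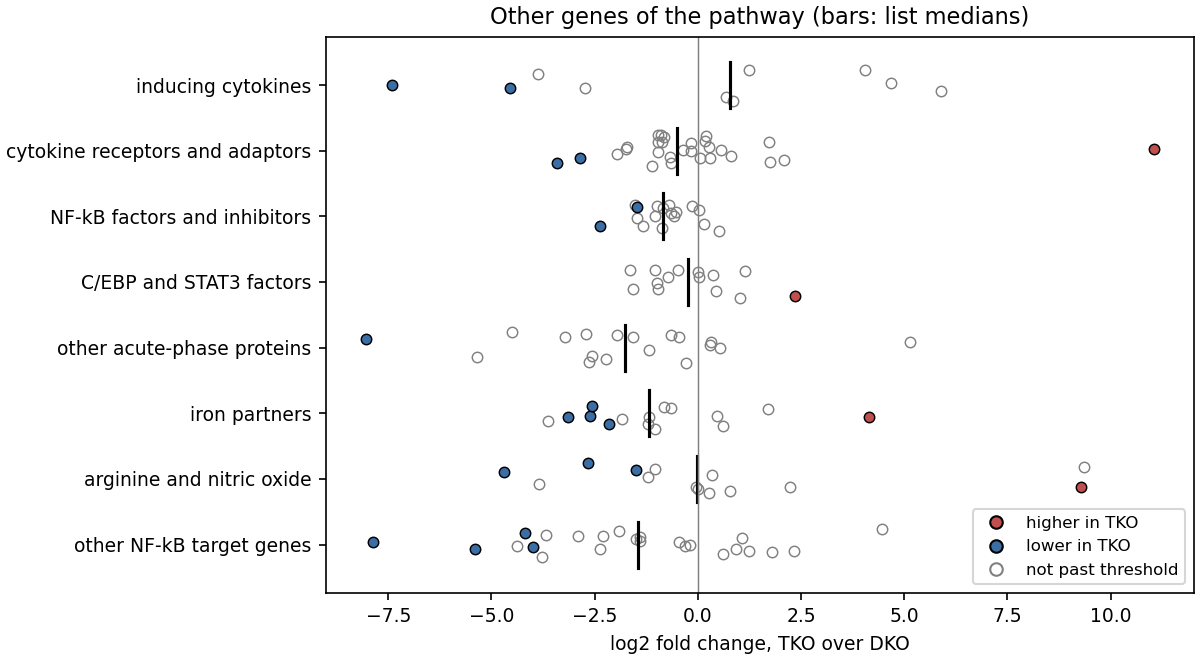
Log2 fold change (TKO over DKO) of each tested gene in the 8 lists, with filled points for genes past an adjusted p of 0.05 (red higher, blue lower in TKO), open points for the others and black bars for list medians; height within a list is only for legibility. Of 138 genes, 18 are filled blue and 4 filled red.

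The genes whose levels ran most like the set over the 6 tumours included Il6 and Osmr from the lists above. The others named below were not in those lists. Likeness was the root mean square difference, in log2 units, between a gene's centred log2 CPM and the mean centred log2 CPM of the 8 genes, over 11527 protein-coding genes with a median of 2.47. The 8 nearest were Gng8 (0.25), Fez1 (0.31), Soat2 (0.35), Il6 (0.42), Osmr (0.43), Qpct (0.45), Ndufa4l2 (0.45) and Eno2 (0.46). Fez1, for example, had 0.54, 5.81 and 2.13 CPM in the 3 TKO tumours and 38.4, 53.6 and 23.5 CPM in the 3 DKO tumours, with TKO1 lowest and TKO2 highest among the TKO tumours. The mean profile of the 8 genes was -4.05, -0.469 and -2.01 in TKO and 2.04, 2.39 and 2.10 in DKO. Likeness to it thus largely restates the difference between the groups, which had a part in the choice of the genes. It is no independent support for a shared pathway.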

How the data were processed

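Poly(A)-selected RNA of 3 TKO and 3 DKO tumours was read on HiSeq instruments, as the labels' protocols state. Raw counts per gene were deposited by the authors, with STAR 2.6.1 and mm10 named in the submitters' processing notes and no annotation release given. The either-strand count was used, since strands held near-equal shares (50.2 to 51.3% on the first). Reads in no gene (5.33 to 9.30% of a file), in several places (3.94 to 4.70%), in more than 1 gene (5.10 to 6.53%) or unmapped (2.53 to 3.20%) were left out. Of 56196 IDs, 55240 matched GENCODE M21 symbols (GRCm38, the assembly of mm10).

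filterByExpr (minimum count 10) kept 15361 genes. TKO was compared with DKO by edgeR's quasi-likelihood test (edgeR 4.0.16, R 4.3.3) with TMM scaling, robust dispersion, no covariate and Benjamini-Hochberg adjustment over all genes, at 0.05. Every adjusted p in the text is edgeR's, apart from those credited to DESeq2 or limma-voom. CPM uses the library total times its TMM factor. Fold changes of the 10 genes are from the same fit and carry no p, since this contrast had a part in their choice. Log2 CPM used a prior count of 2. Levels per kilobase used the longest APPRIS principal transcript. Intervals and floors rest on counts summed over each group, so they cover counting error only and not the spread between tumours. Reads carried no molecular identifiers. Alternatives were RLE factors, library totals, no count filter, genes near absent in a group left out (under 1 CPM in all its libraries), DESeq2 1.42.0, limma-voom (limma 3.58.1), sex, a replicate block, single-strand counts and each library left out.

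The 10 genes and all lists were chosen with earlier results of these data known. Text names the 10 genes, up to 4 genes of each list with the smallest p, 19 fixed key genes and the genes nearest in profile. Cell markers were lists of 8 to 12 genes. By the same test, of the tested markers 12 of 12 rose for leukocytes, 4 of 8 for neutrophils, 10 of 12 for macrophages, 10 of 12 for endothelium, 3 of 4 for epithelium, 2 of 10 for osteoblasts, 0 of 3 for adipocytes and 0 of 10 for fibroblasts; 0 fell, and no hepatocyte marker could be tested. A neutrophil list without Mmp8 was added after seeing the data.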

Additional observations from a re-analysis of the deposited data

How the results depend on the processing

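The count of changed genes, 1131, was 158 with genes near absent in a group left out, 2893 by DESeq2 and 295 with a replicate block, and 0 to 2385 with each library left out. Listed pathway genes that rose numbered 4, with 0 (near-absent genes left out; 6 at an unadjusted p under 0.05), 10 (DESeq2) and 1 (block) under those settings and 0 to 8 with a library left out (11 to 13 at an unadjusted p under 0.05 without DKO1, DKO2 or DKO3, the settings that gave 0). Those that fell numbered 18, with 6, 38 and 9, and 0 to 30. Without DKO1, DKO2 and DKO3 edgeR called 39, 2 and 0 genes in all, the last with 3017 at an unadjusted p under 0.05. The median log2 fold change of the 8 genes, -2.74, was -3.95 by limma-voom and -3.87 to -2.54 with a library left out.

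Only Hp and Orm1 among the 8 changed direction under the alternatives run. Hp (-0.51) was 0.22 by limma-voom, 1.04 with sex and 1.23 with the block, and -1.27 to 2.05 with a library left out. Orm1 (-0.53) ran from -3.71 to 0.054. Rela (0.019) was -0.016 without the count filter, -0.027 by limma-voom, -0.029 with sex and -0.026 with the block, and ran from -0.30 to 0.23; Nfkb1 (0.16) ran from -0.048 to 0.41. The cause was not tested. Replicate numbers are shared by the groups, but same-numbered tumours did not deviate together (r of -0.007, 0.0089 and -0.017 for replicates 1, 2 and 3), so the block rests on numbers alone. The order of levels in DKO was the same by CPM. With 3 tumours a group and 1 library each, spread within a tumour is not measured.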
